A study of Mus musculus with 36 samples.

Results

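Bone morphogenetic protein (BMP) signalling was followed through 10 named genes: the ligands Bmp2 and Bmp4, the secreted antagonist Grem1, the pseudoreceptor Bambi, the inhibitory Smads Smad6 and Smad7, and the target genes Id1, Id2, Id3 and Id4. They were chosen by gene symbol, with earlier KO against WT results of these data in view, and all 10 were found among the 21442 genes of the count table. The results in view were the lower Id2 counts of KO iPSCs and KO ESCs, so Id2 is described at those stages with no test and is left out of counts of calls there. RNA-seq read counts were taken from 36 mouse libraries, 3 for each of 2 genotypes at 6 stages, and the series asks how loss of the zinc finger protein Zfp266 alters expression before, during and after reprogramming.

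All groups derived from the Cas9 TNG MKOS line of strain 129 background, made in ESCs, which carries Cas9, a Nanog-GFP reporter with puromycin resistance and a doxycycline-inducible cassette of Myc, Klf4, Oct4 and Sox2 with mOrange. MEF WT and MEF KO were embryonic fibroblasts from chimaeric embryos of stage E12.5 (E for embryonic day). They were transduced with lentiviral guide RNA (non-targeting in WT, against Zfp266 in KO) and harvested 96 hours later. D3, D5 and D7, WT and KO, were such fibroblasts after 3, 5 and 7 days in ESC medium with 300 ng/ml doxycycline and vitamin C, mixed with unlabelled fibroblasts and sorted for the transgene by mOrange. KO libraries of these 4 stages were therefore populations of edited cells and not clones. The iPS WT and iPS KO libraries were 3 single-cell clones each, taken after Nanog-GFP and puromycin selection. The ESC WT libraries were 3 samples of 1 parental line, the Cas9 TNG MKOS ESC clone named Clone J, and the ESC KO libraries were 3 single-cell clones made from it by transfection of a Zfp266 guide RNA plasmid, so in ESCs the KO and differences between clones cannot be told apart. Nothing in the labels says that replicates of MEFs and reprogramming cells came from separate embryos, so p-values there measure the spread between these samples, which may be technical.

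BMP ligands bind paired type I and type II receptors, which phosphorylate Smad1, Smad5 and Smad9, and these enter the nucleus with Smad4. The Id genes are direct targets of this complex and encode proteins that bind E proteins such as Tcf3 and keep them off DNA. Smad6 and Smad7 are also induced by the pathway and inhibit it, Bambi is a receptor-like protein without a kinase that dampens signalling, and Grem1 binds BMP2 and BMP4 outside the cell. In mouse ESCs grown with LIF and serum, BMP4 and Id proteins are known to help maintain self-renewal, and BMP signalling is known to assist the mesenchymal-to-epithelial transition of fibroblasts early in reprogramming.

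Shown are the sequences just before the start sites of Bmp4 and Grem1, which moved furthest between WT MEFs and day 3. For Id2, which was lowest in KO iPSCs and KO ESCs, a stretch further upstream of its start site is shown. They were chosen as sequences near the genes the results turn on. They are from RefSeq on GRCm38.p6, read 5′ to 3′ on the minus strand, the strand of each gene. Capitals mark the palindrome GGCGCC, a GC-rich element bound by BMP Smads, and GTCT, the core of the Smad binding element, searched on both strands (GTCT appears as AGAC where it lies on the other strand).
Bmp4 (chr14:46390670-46390919): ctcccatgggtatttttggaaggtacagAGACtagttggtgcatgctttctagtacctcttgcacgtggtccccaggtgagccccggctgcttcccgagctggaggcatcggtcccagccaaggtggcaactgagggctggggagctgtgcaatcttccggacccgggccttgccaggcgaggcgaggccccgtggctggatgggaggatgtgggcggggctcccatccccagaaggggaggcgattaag
Grem1 (chr2:113758649-113758898): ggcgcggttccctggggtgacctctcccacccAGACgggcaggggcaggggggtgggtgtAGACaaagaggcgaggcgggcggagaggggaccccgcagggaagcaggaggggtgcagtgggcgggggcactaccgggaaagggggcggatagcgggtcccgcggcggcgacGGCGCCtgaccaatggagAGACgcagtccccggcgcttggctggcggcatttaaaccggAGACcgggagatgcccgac
Id2 (chr12:25096254-25096342): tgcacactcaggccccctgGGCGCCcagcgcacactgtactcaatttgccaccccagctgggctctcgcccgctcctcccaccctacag
The Bmp4 and Grem1 stretches are the 250 bases before the RefSeq start and touch no annotated exon. For Id2 only the 89 bases of its window farthest from the RefSeq start are shown. They lie in the first intron of one annotated Id2 transcript and ahead of another. Nearer the start its window meets an annotated exon, and that part is not shown. Grem1 held 1 GGCGCC and 4 copies of GTCT or its complement, and Bmp4 held 0 and 1. Over the whole 250 bases, Id2 had 1 of each, Id4 had 1 GGCGCC and 0 GTCT, Smad6 had 0 and 1, and Id3 had 0 and 2. Among 32851 such windows of 250 bases in the RefSeq table, 9.59% held GGCGCC and 82.9% held GTCT on either strand. These matches are letters in a window, and no binding was measured. Id1, Bmp2, Bambi and Smad7 had no sequence used here.

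Library totals ranged from 19224103 to 39610939 counts. A library without a read for a gene still allows 3 reads, which is 2.31 to 5.22 normalised counts (raw counts divided by 1 size factor per library) and covers counting error only. The labelled stages carried their markers. The summed normalised counts of 10 fibroblast genes were 422032 to 437908 in WT MEFs and 73.8 to 87.4 in WT ESCs, and those of 10 pluripotency genes were 19.7 to 30.8 and 121559.7 to 129848. Zfp266 RNA was present in all libraries, at 1266 to 3293 normalised counts. By DESeq2 Wald test it was higher in KO at day 3 (log2 fold change 0.32, FDR 0.00883). It was lower in KO iPSCs (log2 fold change -0.39, FDR 9.95e-06) and not called at the other stages. Guide-directed edits need not lower a transcript, so the Zfp266 level does not check the KO. The authors report checks by edit frequency in MEFs and by genotyping of clones. Among the libraries, 2 stood apart. In MEF KO replicate 3 the 6 epithelial markers summed to 428, against 1846 to 2954 in the other 5 MEF libraries, and the fibroblast sum was 565664, against 394208 to 437908. In iPS KO replicate 1 the 6 primitive endoderm markers summed to 1273, against 132 to 169 in the other 5 iPSC libraries.

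In WT cells the members moved most, by median log2FC, between MEFs and day 3. Medium and sorting also differed between these stages, so their part and that of the reprogramming factors cannot be told apart. From MEFs to day 3 all 10 differed at FDR < 0.05 (DESeq2 Wald test, Benjamini-Hochberg over all genes), 9 fell and Id2 rose, where 70.9% of all genes tested were called. Group means at day 3 were 5.1% of the WT MEF mean for Bmp4, 5.16% for Grem1, 8.32% for Bmp2 and 10.8% for Id3, and 140.8% for Id2. Between day 3 and day 5, 4 members fell further (Grem1, Id1, Id3 and Bambi, 25.1% of all genes called), and between day 5 and day 7, 3 rose (Bmp4, Id4 and Grem1, 24.1%). From day 7 to iPSCs 8 were called, 5 of them higher in iPSCs and 3 lower (73.5%). WT ESCs and WT iPSCs differed in 0 members (3.20%), with 1 member at an unadjusted p under 0.05 and 0 called by edgeR. Set against WT MEFs, WT ESCs differed in 7 members, with Bmp4 the single one that was higher (79.3%). The median log2 fold change (log2FC) of the 10 members from MEFs to day 3 was -2.06, beside -0.0054 over all genes.

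Calls between KO and WT cells were counted among the members at each stage. In MEFs 0 of 10 were called (0.0428% of all genes tested) and at day 3 also 0 of 10 (0.493%), with 0 members at an unadjusted p under 0.05 and 0 called by edgeR at either stage. At day 5 Id2 was called (7.15%), and at day 7 Bmp4 and Smad7 (29.4%), all 3 higher in KO. Of the other 9 members besides Id2, 3 were called in iPSCs, Id1 and Grem1 lower and Smad7 higher in KO (16.3%), and 1 in ESCs, Id1, which was lower (10.1%). Since the members were chosen with KO results known, nothing is read from their counts beside these shares. Fewer expressing cells and less RNA per cell cannot be told apart in these bulk samples.

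**Figure D1:**
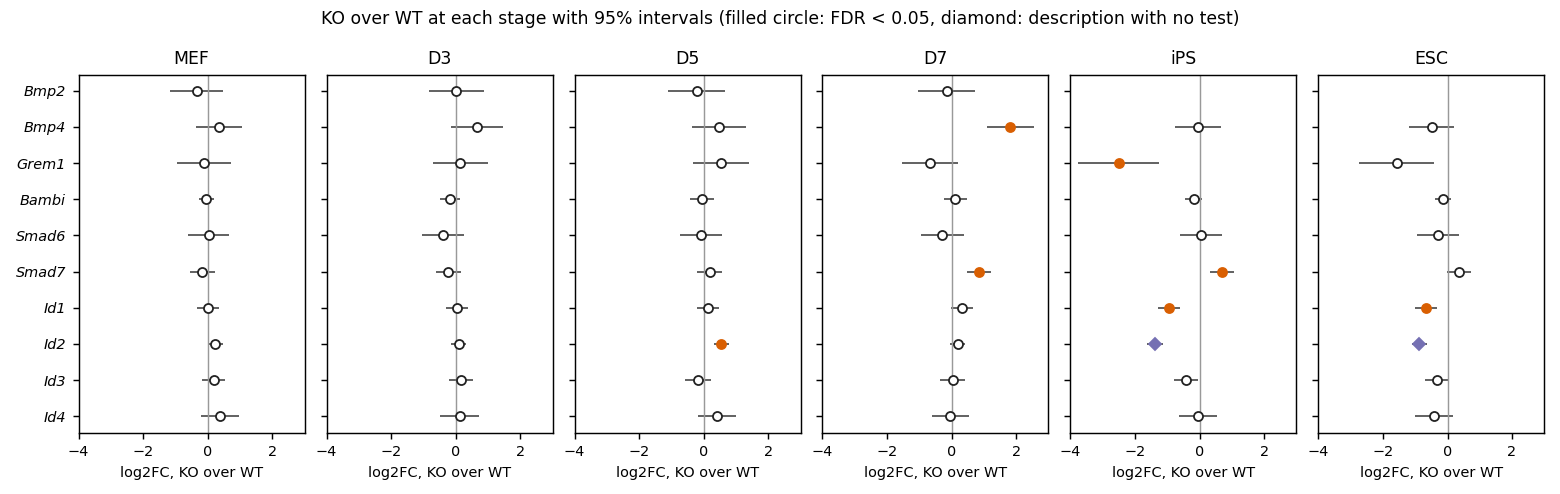
The log2FC of KO over WT is plotted on the horizontal axis for each member (rows) at each stage (panels), with 95% intervals from the fit; filled circles passed FDR < 0.05, open circles did not, and diamonds are Id2 values given as a description. Bmp4 at day 7 (1.81) and Grem1 in iPSCs (-2.51) lie furthest from 0, and Bmp2 is not drawn in iPSCs and ESCs, where no library exceeded 10.98 normalised counts.

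The 2 ligands took different courses. Bmp2 (ENSMUSG00000027358, chromosome 2, 133552159 to 133562885, plus strand) encodes a ligand best known in bone and heart formation. WT MEFs had 866, 862 and 861 normalised counts, and WT cells at day 3 had 81.6, 68 and 65.9 (log2FC -3.59, SE 0.42, FDR 8.28e-17). It was at 39.2 to 51.5 at day 5 and 41.6 to 45.3 at day 7, and the 3 libraries of WT iPSCs had 0, 7.75 and 0. WT ESCs had 1 read in 3 libraries, which is 0.0370% of the WT MEF level (exact 95% interval 0.000936 to 0.206%, counting error only). In KO cells Bmp2 had 903, 976 and 154 in MEFs, where replicate 3 was far below the other 5 MEF libraries, and KO libraries overlapped WT libraries at all 6 stages. KO iPSCs had 22 reads in 3 libraries, 0.811% of the WT MEF level (0.507 to 1.23%), and WT iPSCs 9 reads, 0.307% (0.140 to 0.584%). No KO difference of Bmp2 was called, and in iPSCs and ESCs none was detectable at this depth. In the order of its means MEFs came first, then day 3, then days 5 and 7 intermixed, and last iPSCs and ESCs, with 8 of 11 neighbouring pairs overlapping.

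Bmp4 (ENSMUSG00000021835, chromosome 14, 46383520 to 46390669, minus strand), the ligand that supports ESC self-renewal, fell and then returned. WT MEFs had 530.4, 560.4 and 616 normalised counts, WT cells 34.8, 26 and 26.2 at day 3 (log2FC -4.29, SE 0.39, FDR 1.80e-27) and 15.5, 18.6 and 29.1 at day 5. At day 7 WT libraries had 58.8, 119.8 and 48.4, above all WT day 5 libraries (log2FC 1.85, SE 0.41, FDR 0.000116). Levels in WT iPSCs were 1266, 2087 and 965 (log2FC 4.25, SE 0.37, FDR 1.10e-29 against day 7), and in WT ESCs 1279, 1244 and 1225, higher than in WT MEFs (log2FC 1.13, SE 0.36, FDR 0.00234).

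KO cells at day 7 had 223, 352 and 222 normalised counts of Bmp4, and no KO library overlapped a WT library (log2FC 1.81, SE 0.37, FDR 1.53e-05, a 3.51-fold difference). This call held in all 14 alternatives, with FDR up to 0.0016. At day 3 the KO libraries (47.6, 52.9 and 37) also lay above the WT libraries, but the difference was not called (log2FC 0.66, SE 0.405, FDR 0.944). KO iPSCs spread from 648 to 1769 and overlapped WT iPSCs. In ESCs the KO libraries (948, 860.5 and 858) were all below the WT libraries without a call in the fit of 36 libraries (log2FC -0.49, SE 0.36, FDR 0.432), while the fit of the 6 ESC libraries alone called it (log2FC -0.501, FDR 6.21e-07). MEF KO replicate 3 had 1189.7 normalised counts, against 452 to 616 in the other 5 MEF libraries. In the order of the 12 group means, iPSCs and ESCs came first, then MEFs, KO cells at day 7 and WT cells at day 7, and 8 of 11 neighbouring pairs overlapped. Exons of Bmp4 share bases with those of Gm15217 on the other strand, and since the strand setting of the counting is not stated, its counts may hold reads of both.

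Grem1 (ENSMUSG00000074934, chromosome 2, 113746164 to 113758646, minus strand), an antagonist secreted by fibroblasts, was the member with the highest WT MEF level of the 6 that are not Id genes, with 3384, 3137 and 3330.4 normalised counts and 792 per kilobase of exon. It fell at day 3 to 209, 157 and 142 (log2FC -4.28, SE 0.43, FDR 1.06e-22) and at day 5 to 58.2, 31 and 74.9 (log2FC -1.63, SE 0.44, FDR 0.00191). WT day 7 libraries had 91.3, 174 and 92.6 (log2FC 1.13, SE 0.45, FDR 0.0485 against day 5), a call lost in 7 of 13 alternatives. WT iPSCs had 6.91, 35.3 and 16.7 and WT ESCs 13.1, 18.2 and 13 (WT ESCs against WT MEFs, log2FC -7.800, SE 0.47, FDR 1.13e-59).

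Low Grem1 counts were lower still in KO pluripotent cells. KO iPSCs had 2, 6.08 and 2.02 normalised counts, all below the 3 WT clones (log2FC -2.51, SE 0.63, FDR 0.00144). The call was lost without iPS WT replicate 2 (log2FC -1.76, FDR 0.072) and in the fit of the 6 iPSC libraries (log2FC -2.55, FDR 0.102). KO ESCs had 2.69, 6.81 and 5.38, again below all WT libraries, and this was not called (log2FC -1.58, SE 0.596, FDR 0.0689). It passed with the replicate number as a block (log2FC -1.58, FDR 0.0426) and as a block within stage (log2FC -1.59, FDR 0.0173). Replicate numbers do not count as pairs in ESCs. These KO counts are near or below the level that 3 reads would give. At day 7 the KO libraries (72.3, 116 and 34.5) overlapped the WT libraries (log2FC -0.68, SE 0.44, FDR 0.26), and the difference passed with the replicate number as a block within stage, which the day 7 libraries warrant (log2FC -0.75, FDR 0.0319). It also passed without D7 KO replicate 2 (log2FC -1.17, FDR 0.03), and leaving out each library in turn moved the log2FC between -1.17 and -0.305.

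**Figure D2:**
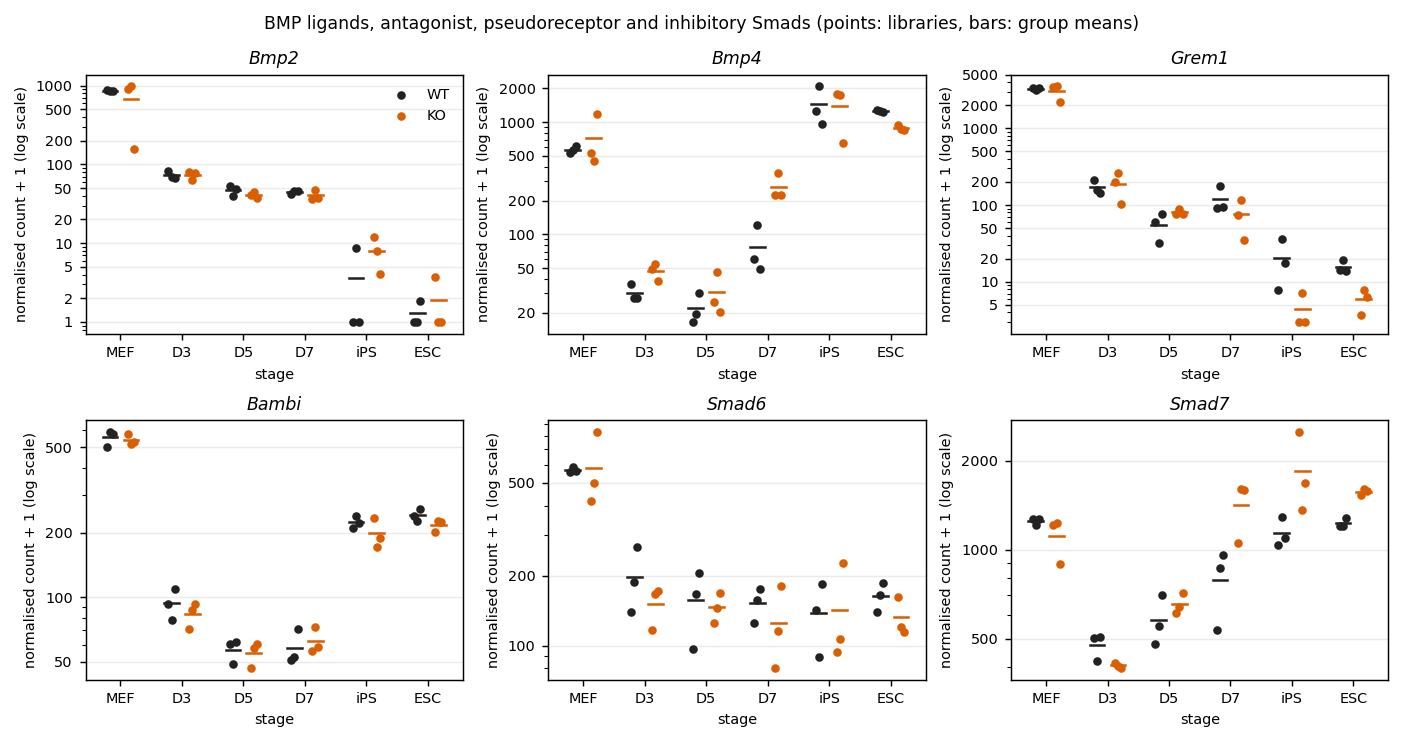
Normalised counts plus 1, on a log axis, of the ligands, antagonist, pseudoreceptor and inhibitory Smads in each library (points) with group means (bars), WT in black and KO in orange, by stage. Bmp4 falls from MEFs to days 3 and 5 and returns in iPSCs and ESCs, while Bmp2 and Grem1 stay low there, and the KO points of Bmp4 and Smad7 lie above the WT points at day 7.

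Bambi (ENSMUSG00000024232, on chromosome 18), the pseudoreceptor, had 503, 588 and 577 normalised counts in WT MEFs. It fell to 91.7, 77 and 109 at day 3 (log2FC -2.59, SE 0.14, FDR 4.92e-74) and 59.2, 47.5 and 60.4 at day 5 (log2FC -0.73, SE 0.18, FDR 0.000333). Levels were 49.7 to 70 at day 7 and rose to 209.9, 239 and 222 in WT iPSCs (log2FC 1.97, SE 0.16, FDR 2.04e-33), below the MEF level. KO libraries overlapped WT libraries at all 6 stages. MEFs had the highest means and ESCs and iPSCs the next, with 9 of 11 neighbouring pairs overlapping. The KO difference furthest from 0 was in iPSCs, with log2FC -0.18 (95% interval -0.44 to 0.072, FDR 0.379).

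The inhibitory Smads fell together at day 3 and took different courses afterwards. Smad6 (ENSMUSG00000036867, chromosome 9, 63953076 to 64022059, minus strand), which blocks BMP receptors and receptor-activated Smads, fell from 555, 585 and 565 normalised counts in WT MEFs to 138, 186 and 264 at day 3 (log2FC -1.54, SE 0.33, FDR 5.45e-06). Group means then stayed between 124 and 163 in both genotypes from day 5 onwards, and 10 of the 11 neighbouring pairs in the order of its 12 group means overlapped. No later difference between successive stages and no KO difference of Smad6 was called.

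Smad7 (ENSMUSG00000025880, on chromosome 18), which recruits ubiquitin ligases to BMP and TGF-β receptors, fell from 1266, 1207 and 1265 in WT MEFs to 503, 418 and 506 at day 3 (log2FC -1.39, SE 0.196, FDR 4.20e-12). WT day 7 libraries had 534, 869 and 959.9 and WT iPSCs 1034, 1289 and 1098 (log2FC 0.53, SE 0.19, FDR 0.00898, a call lost without D7 WT replicate 1, FDR 0.132, or without iPS WT replicate 2, FDR 0.0586). WT ESCs, at 1201, 1199 and 1283, were not called against WT MEFs (log2FC -0.022, 95% interval -0.401 to 0.36).

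At day 3 KO libraries (414, 404 and 398) were all below WT, the lowest of the 12 groups, without a call (log2FC -0.23, SE 0.198, FDR 1). KO cells had more Smad7 RNA at day 7, with 1053, 1599 and 1592 normalised counts, all above WT (log2FC 0.85, SE 0.19, FDR 0.000126), and the call held in all 14 alternatives, with FDR up to 0.0181. In iPSCs KO clones had 2496, 1361 and 1676, again all above WT (log2FC 0.69, SE 0.19, FDR 0.00432). Replicate 1 of these, which carries the primitive endoderm markers, was the highest, and without it the difference was not called (log2FC 0.41, FDR 0.167), nor in the fit of the 6 iPSC libraries (FDR 0.0798). All 6 of those marker genes were above 0 in that library, with Dab2 at 649 normalised counts and Gata4 at 255, and Foxa2 was at 0 in iPS KO replicate 2. The part of these markers in the Smad7 result was not tested beyond leaving the library out. In ESCs the KO libraries (1525, 1608 and 1572) were also all above WT, without a call (log2FC 0.35, SE 0.19, FDR 0.255), and the fit of the 6 ESC libraries called it (log2FC 0.34, FDR 0.000426).

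At day 7, several marker lists differed between WT and KO without overlap, as Bmp4 and Smad7 did. The 10 pluripotency genes, all above 0 in the 6 libraries, summed to 5493 to 9554 in WT and 25447 to 33817 in KO, and the 10 fibroblast genes, also all above 0, to 25146 to 37791 and 8381 to 23359. Of the fibroblast genes, Col1a1, Col1a2, Prrx1 and Dcn were lower in all KO libraries, while Col3a1, Thy1, Pdgfrb, Postn, Twist2 and Lum overlapped. The 3 trophoblast genes, all above 0, summed to 121 to 158 in WT and 294 to 387 in KO, with Elf5 and Eomes higher in all KO libraries and Hand1 overlapping. The 4 endothelial genes summed to 833 to 1090.5 and 2648 to 2869.7, nearly all of it Tie1, while Cdh5 was at 2.01 to 12.05 and Emcn at 0 in 5 of the 6 libraries. The 4 blood genes, all above 0, summed to 290.0 to 362 and 474 to 506, mostly Cd68, and the 3 early mesoderm genes, all above 0, to 8.23 to 9.13 and 10 to 37.2. The 6 epithelial genes overlapped in sum (57713 to 62611 and 57282 to 59791), but single genes moved in opposite directions. Krt8 was lower in all KO libraries (35929 to 39874 in WT and 31472 to 31766 in KO). Krt18 was higher (458 to 616 in WT and 1716 to 2322 in KO), as were Epcam and Ocln, while Cdh1 and Cldn4 overlapped. The 6 primitive endoderm genes overlapped in sum too (685 to 996 and 754 to 812). Of these, Gata6, Dab2 and Foxa2 were lower in all KO libraries, Sox17 was higher at small counts, and Gata4 and Sox7 overlapped. The part of these markers in the day 7 differences was not tested.

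The 4 Id genes, the targets, each had their own course. Per kilobase of exon, Id3 and Id1 had the highest WT MEF levels of the 10 members (2527 and 2493 normalised counts per kb), followed by Grem1 (792) and Id2 (336). In WT ESCs Id1 was the highest (1165), followed by Bmp4 (556) and Id2 (354).

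Id1 (ENSMUSG00000042745, chromosome 2, 152736251 to 152737410, plus strand), the classical BMP target, had 3009, 2587 and 3079 normalised counts in WT MEFs and 1173, 1249 and 1477 at day 3 (log2FC -1.15, SE 0.17, FDR 9.72e-11). It fell to 823, 903 and 1025 at day 5 (log2FC -0.503, SE 0.18, FDR 0.0205), a call lost without D3 WT replicate 3 (FDR 0.131) or D5 WT replicate 1 or 2 (FDR 0.0999 and 0.063). WT iPSCs had 1221, 1557 and 1382 and WT ESCs 1278, 1362 and 1412.

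In KO pluripotent cells Id1 was lower. KO iPSCs had 831, 831 and 503 normalised counts, all below WT (log2FC -0.94, SE 0.18, FDR 5.53e-06, 0.52 of the WT level), and this held in all 14 alternatives with FDR up to 0.00206. KO ESCs had 1072, 864 and 598, also all below WT (log2FC -0.68, SE 0.18, FDR 0.00328), and the call was lost without ESC KO replicate 3 (log2FC -0.48, FDR 0.071). In both cell types KO replicate 3 was the lowest. In ESCs the 10 pluripotency genes, all above 0, summed to 121559.7 to 129848 in WT and 137981 to 139505 in KO, and the 10 fibroblast genes to 73.8 to 87.4 and 94.2 to 134, with 3 to 8 of them above 0. Other lists had lower sums in KO ESCs, also without overlap. The 3 early mesoderm genes, all above 0, summed to 39.95 to 46.19 in WT and 17.05 to 30.18 in KO. The 4 endothelial genes, 2 to 3 of them above 0, summed to 85.4 to 107.3 and 44.8 to 54.8. In iPSCs the fibroblast sum was 78.4 to 109 in WT and 112 to 202 in KO, with 5 to 8 above 0. The part of these markers in the Id1 differences was not tested. In the order of the 12 means, MEFs came first and KO ESCs and KO iPSCs last, and 10 of 11 neighbouring pairs overlapped. During reprogramming the direction was the other way at day 7, where KO libraries (1061, 1275 and 1382) lay just above WT libraries (885, 1061 and 1056) without a call (log2FC 0.31, SE 0.18, FDR 0.186), and the fit of the 6 day 7 libraries called it (log2FC 0.35, FDR 0.00616).

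Id2 (ENSMUSG00000020644, chromosome 12, 25093799 to 25097140, minus strand) was the member that rose from MEFs to day 3, from 809, 807 and 838 to 1089, 1204 and 1162 normalised counts in WT (log2FC 0.49, SE 0.12, FDR 9.51e-05). WT levels then lay at 969.8, 1049.7 and 1044 at day 5 and 852, 923 and 946 at day 7, with no call between successive stages up to ESCs. At day 5 KO libraries had 1452, 1466 and 1541, the highest of the 12 groups and above all others (log2FC 0.54, SE 0.12, FDR 0.000281), and the call held in all 14 alternatives with FDR up to 0.00597. The pluripotency genes, 7 to 10 of the 10 above 0, summed to 1238 to 1480.1 in WT and 2757 to 4117 in KO at day 5, the 6 epithelial genes, all above 0, to 67455 to 68828 and 71509 to 74297, and the 4 endothelial genes, 2 to 3 of them above 0, to 113 to 117 and 276 to 389. The endothelial sum was mostly Tie1 (96.1 to 102 in WT and 261 to 354 in KO), while Kdr overlapped, Cdh5 was at most 2.31 and Emcn was at 0. Of the pluripotency genes, Utf1 was lower in all KO libraries (130 to 158 in WT and 80.1 to 120 in KO), and Dppa3 and Tdgf1 overlapped. The part of these markers in the Id2 difference was not tested. At day 7 KO libraries (1091, 1002 and 1016) were above WT without a call (log2FC 0.19, SE 0.12, FDR 0.237), and the fit of the 6 day 7 libraries called it (log2FC 0.23, FDR 0.0248).

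The Id2 values that led to its choice were those of pluripotent cells, given here as a description. WT iPSCs had 643, 796 and 910.2 normalised counts and KO iPSCs 226, 363 and 310.1 (log2FC -1.38, SE 0.13). WT ESCs had 889.7, 892 and 805 and KO ESCs 513, 430.2 and 468 (log2FC -0.87, SE 0.12). KO iPSCs and KO ESCs were the lowest of the 12 groups, and neither overlapped the group next above it. Leaving out single libraries or changing the fit moved the log2FC between -1.55 and -1.22 in iPSCs and between -0.94 and -0.81 in ESCs.

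Id3 (ENSMUSG00000007872, chromosome 4, 136143497 to 136145755, plus strand) was the highest member in WT MEFs, with 4597, 4298 and 4682 normalised counts, and fell to 491, 456 and 518 at day 3 (log2FC -3.21, SE 0.19, FDR 2.32e-64) and 156, 223 and 231 at day 5 (log2FC -1.26, SE 0.196, FDR 4.78e-09). It rose from 160.3, 303 and 229 at day 7 to 402, 319 and 441 in WT iPSCs (log2FC 0.75, SE 0.196, FDR 0.000263) and had 489, 473 and 449 in WT ESCs. KO iPSCs (307, 324 and 236) overlapped WT (log2FC -0.42, SE 0.19, FDR 0.127). KO ESCs (431, 363 and 323) were all below WT, without a call (log2FC -0.34, SE 0.19, FDR 0.282), and with one in the fit of the 6 ESC libraries (FDR 0.0436). MEF means were far above the other 10 groups, and 9 of 11 neighbouring pairs in the order overlapped.

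Id4 (ENSMUSG00000021379, chromosome 13, 48261228 to 48266026, plus strand), known for roles in neural and bone differentiation, was the member whose highest WT mean was at day 7. WT MEFs had 266, 247 and 247, day 3 143, 148 and 110.5 (log2FC -0.92, SE 0.31, FDR 0.00427), day 5 193, 189.9 and 183 and day 7 471, 323 and 289 (log2FC 0.94, SE 0.300, FDR 0.0115 against day 5, lost without D7 WT replicate 1, FDR 0.125). WT iPSCs were lower again, at 195, 129 and 239 (log2FC -0.94, SE 0.300, FDR 0.00271). At day 5 KO libraries (269, 260.2 and 221) were above WT without a call (log2FC 0.41, SE 0.301, FDR 0.525), and the fit of the 6 day 5 libraries called it (FDR 0.0431). MEF KO replicate 3 had 573 normalised counts against 196 to 266 in the other 5 MEF libraries. In the order of its means 10 of 11 neighbouring pairs overlapped. Exons of A330033J07Rik and Gm49291 on the other strand overlap those of Id4, so its counts carry the same uncertainty about strand as Bmp4.

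**Figure D3:**
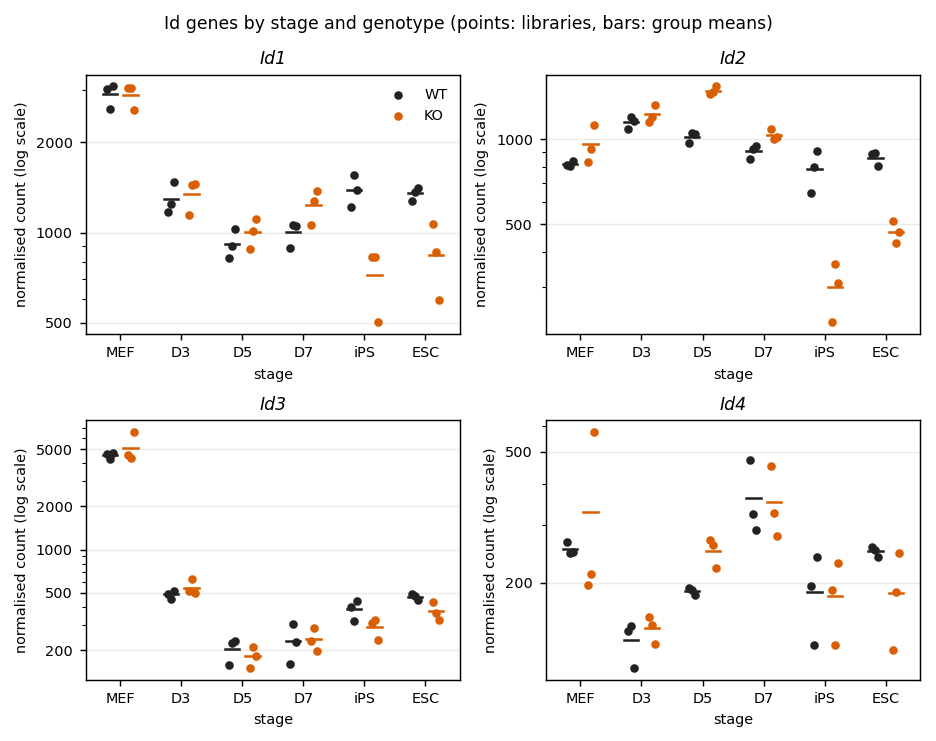
Normalised counts of the 4 Id genes on a log axis in each library (points) with group means (bars), WT in black and KO in orange, by stage. Id2 KO points lie above WT at day 5 and below WT in iPSCs and ESCs, Id1 KO points are below WT in iPSCs and ESCs, and Id3 falls about 9-fold from MEFs to day 3.

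Whether the KO effect itself changed between stages was tested by interaction terms in the fit of 36 libraries. The KO effect on Smad7 was more positive at day 7 than at day 3 (difference of log2FC 1.08, SE 0.28, FDR 0.00239), the 1 member of 10 called there, beside 13.0% of all genes. For Bmp4 the same difference was 1.15 without a call (FDR 0.16), and with one when the replicate number was a block within stage (FDR 0.0236), a block chosen after seeing the data. Between day 7 and iPSCs, 2 of the 9 members other than Id2 were called, Id1 (difference 1.25, FDR 1.28e-05) and Bmp4 (difference 1.87, FDR 0.003), both more positive at day 7, beside 21.9% of all genes. Between iPSCs and ESCs 0 of the 9 were called (1.47% of all genes), with 0 at an unadjusted p under 0.05 and 0 by edgeR. The interval of that difference ran from -0.75 to 0.22 for Id1 and from -0.19 to 0.87 for Smad7, so differences within these bounds could not be told from 0.

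Other genes of the pathway were taken from 8 lists of 75 genes, of which 70 were in the table. Most calls among them came at day 7, where 6 were higher and 20 lower in KO, beside 13.3% and 16.1% of all genes. With the block within stage these counts were 7 and 24, for which no share of all genes is given. In MEFs 0 and 0 were called (0.0285% and 0.0143% of all genes) with 4 at an unadjusted p under 0.05 and 0 by edgeR. At day 3 the counts were 1 higher and 0 lower (0.374% and 0.119%) and at day 5 2 and 2 (4.72% and 2.43%). In iPSCs 7 were higher and 2 lower (9.72% and 6.63%), and in ESCs 3 and 1 (5.82% and 4.29%). The marker sums given above for day 7 moved with the day 7 calls, and their part in them was not tested.

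Of 9 other ligands in the table, 1 was higher and 2 lower at day 7. Gdf3, a ligand of early embryos that antagonises BMP, had 223, 314 and 238 normalised counts in WT and 985, 999.7 and 766 in KO (log2FC 1.83, FDR 3.39e-19), and it was also higher at day 5 (log2FC 1.48, FDR 1.40e-07). Its day 3 call rested on counts of at most 20.4 and was lost with edgeR (FDR 0.333). Bmp6 had 493, 393 and 522 in WT and 260.1, 210.1 and 253 in KO (log2FC -0.96, FDR 2.29e-05), and Bmp8b was lower by a smaller margin (log2FC -0.702, FDR 6.59e-08). Bmp6 at day 5 (log2FC -0.58, FDR 0.0469) was lost with edgeR (FDR 0.142) and in all 6 fits that left out 1 library. Bmp8b in iPSCs (log2FC 0.95, FDR 0.00687) was lost with edgeR too (FDR 0.0585).

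Among 10 receptors and co-receptors, 4 were lower and 1 higher in KO at day 7. Rgma, a BMP co-receptor, had 1575, 1238 and 1329 in WT and 691, 571 and 687 in KO (log2FC -1.09, FDR 1.08e-09). The type I receptor Bmpr1b (log2FC -1.76, FDR 1.90e-05) and the type II receptor Bmpr2 (log2FC -0.49, FDR 0.00282) were lower as well, the latter not without D7 WT replicate 3 (FDR 0.0512). In iPSCs Eng (log2FC 0.59, FDR 0.0493) and Bmpr1a (log2FC 0.18, FDR 0.0498) were higher, and both calls were lost with edgeR (FDR 0.0715 and 0.101) and without iPS KO replicate 1 (FDR 0.377 and 0.454). Of the 4 signal-transducing Smads, Smad9 (log2FC -1.26, FDR 0.00156) and Smad4 (log2FC -0.28, FDR 0.000488) were lower at day 7. At the other 5 stages 0 of them were called, with 2 at an unadjusted p under 0.05 in iPSCs and 0 by edgeR.

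Secreted antagonists were the list with the lowest median at day 7, -0.78 over 12 genes beside -0.0449 over all genes, with 4 lower and 0 higher. With the block within stage 6 were lower and 0 higher at day 7, and over the 6 stages 12 were called in place of 6, again with no share of all genes for that fit. Nbl1 had 371, 488 and 599.8 in WT and 209.9, 239 and 297 in KO (log2FC -0.97, FDR 4.03e-05). Fst, which encodes follistatin, an inhibitor of activin and BMPs, had 469.6, 787 and 895 and 325, 334 and 441 (log2FC -0.97, FDR 0.000459). Sost, a bone antagonist, was lower at small counts (log2FC -1.42, FDR 0.00632) and lost its call without D7 WT replicate 2 or D7 KO replicate 2 (FDR 0.0625 and 0.0595). Nbl1 was also lower at day 5 (log2FC -0.64, FDR 0.0321), a call lost in 4 of 6 fits that left out 1 library (FDR up to 0.248). In iPSCs Bmper was called on 1 library, at 79.9, 0.868 and 3.03 in KO against 0.864, 0 and 0.928 in WT, and not without iPS KO replicate 1 (FDR 0.475), the library with the primitive endoderm markers.

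Of 8 intracellular regulators, 2 were lower at day 7, 2 lower in iPSCs, and 1 higher and 1 lower in ESCs. Smurf1, a ubiquitin ligase for BMP Smads (log2FC -0.33, FDR 0.0174), and Tob1, which binds BMP Smads (log2FC -0.16, FDR 0.0178), passed at day 7, the first not without D7 WT replicate 3 (FDR 0.123) or D7 KO replicate 1 (FDR 0.0915), and the second not with edgeR (FDR 0.0975) or without D7 KO replicate 2 (FDR 0.118). Fkbp1a, which keeps type I receptors inactive, was lower in KO iPSCs (log2FC -0.43, FDR 2.80e-07, FDR 0.0663 in the fit of the 6 iPSC libraries), as was Tob1 (log2FC -0.22, FDR 0.0128, not without iPS KO replicate 1 or 2, FDR 0.0580 and 0.0505). Tob1 was also lower in KO ESCs (log2FC -0.32, FDR 0.000223), where Lemd3 was higher (log2FC 0.27, FDR 0.0186, FDR up to 0.160 without single libraries). Of 7 other BMP targets, Dusp9 was higher at day 7, with 207, 217 and 221 in WT and 487, 546 and 437 in KO (log2FC 1.19, FDR 0.00149), and Runx2, a regulator of bone formation, was lower (log2FC -0.98, FDR 1.72e-05). Of the 3 E proteins that Id proteins bind, Tcf3 was higher at day 7 (log2FC 0.33, FDR 0.00446), and at other stages 0 were called, with 1 at an unadjusted p under 0.05 in MEFs and 0 by edgeR.

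The TGF-β and activin branch, with 17 genes, had 2 higher and 5 lower at day 7. Nodal, the ligand that sustains activin-type signalling in early embryos, had 54.8, 55.4 and 46.3 in WT and 209.9, 267 and 248 in KO (log2FC 2.21, FDR 7.74e-29). At day 5 it had 1.94, 1.03 and 1.04 and 4.77, 17.8 and 9.25 (log2FC 2.94, FDR 0.00483, FDR 0.0664 without D5 KO replicate 2). Tgfb2 was lower (log2FC -1.41, FDR 1.00e-09) and Tgif1, a corepressor of TGF-β Smads, higher (log2FC 0.58, FDR 1.06e-08). In iPSCs Acvr1b (log2FC 0.44, FDR 1.01e-05) and Tgfbr2 (log2FC 1.47, FDR 1.11e-06) were higher, and both calls were lost in the fit of the 6 iPSC libraries (FDR 0.0583 and 0.191). In ESCs Acvr1b (log2FC 0.301, FDR 0.00798, FDR 0.126 without ESC KO replicate 3) and Inhbb (log2FC 0.94, FDR 0.0103, FDR 0.12 without ESC KO replicate 1) were higher.

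**Figure D4:**
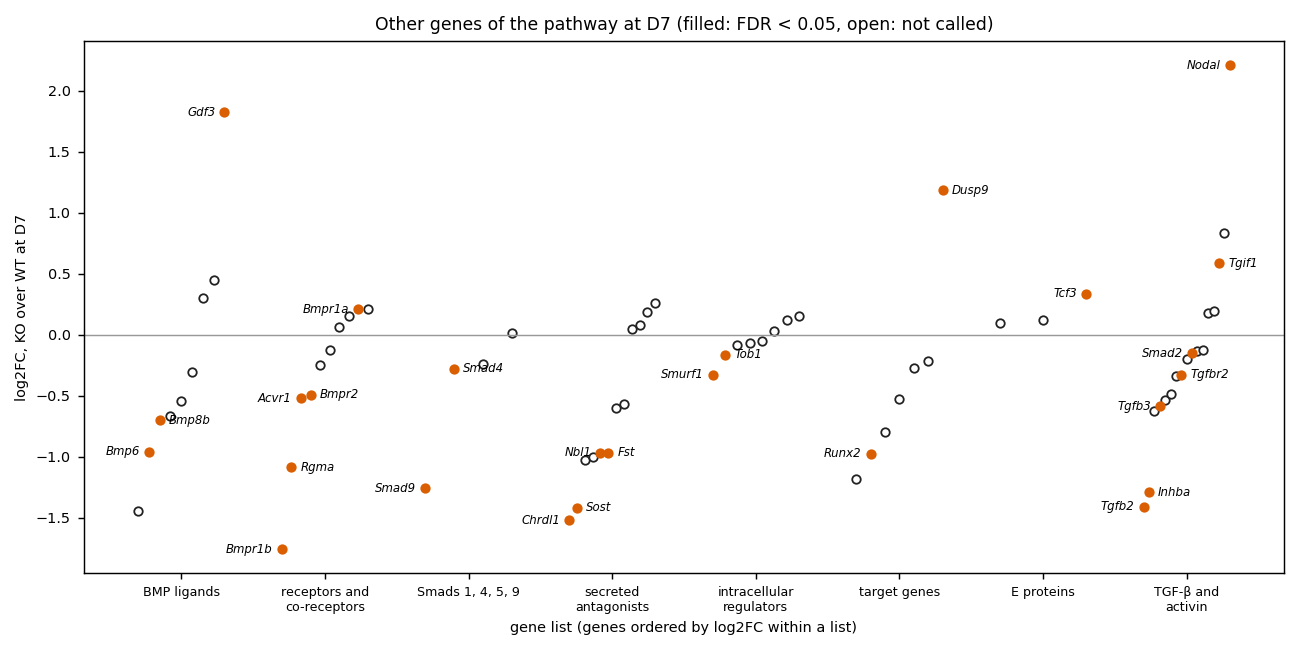
The log2FC of KO over WT at day 7 (vertical axis) for the 70 other pathway genes, grouped by list and ordered by log2FC within a list (horizontal axis), with genes that passed FDR < 0.05 filled and named and the others open. Gdf3 (1.83) and Nodal (2.21) stand highest, and the 4 filled secreted antagonists, Chrdl1, Sost, Nbl1 and Fst, lie below 0.

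The members did not share 1 pattern over the 12 group means, on the scale of log2 normalised counts plus 1. These correlations are descriptions over 12 points, which share 1 normalisation and come from 6 stages in 2 genotypes. Bmp2 and Grem1 had Pearson's r 0.918, Smad6 and Id3 0.95, Id1 and Id3 0.907, and Bmp4 and Smad7 0.884. Id2 ran against Smad7 (r -0.735) and Bmp4 (r -0.683), and its r with the other Id genes was between 0.0107 and 0.354. Among 13285 genes with a mean of at least 100 normalised counts, those with the most similar course to Id2 were G6pdx (r 0.942), Dynll1 (0.900) and Fgf18 (0.893). The nearest to Bmp4 were Sephs1 (0.995), Urod (0.993) and Gm45080 (0.993), and to Smad7 Tmem231 (0.978), Rreb1 (0.971) and Phyh (0.97). For Id1 they were Zfp771 (0.962), Actb-ps1 (0.954) and Gm4750 (0.953), where the last 2 may share reads with near-identical copies. For Id3 the nearest was Dlg4 (0.991), for Id4 Stard3nl (0.93), for Grem1 Sqor (0.991), for Bmp2 Cpe (0.994), for Bambi Rab34 (0.996) and for Smad6 Igdcc4 (0.993).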

How the data were processed

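RNA-seq was run on 36 mouse libraries made with a stranded mRNA kit. The authors trimmed reads with cutadapt, checked them with FastQC, aligned them with STAR to GRCm38.p6 and counted them per gene with Rsubread, and the annotation release and the strand setting of the counting are not given in the sources used here. The deposited raw counts per gene were the basis of every test. The deposited normalised signal, counts divided by DESeq2 size factors, gave the levels printed, and the same values were recomputed from the counts. Columns of the authors' own comparisons (fold changes, p-values and FDR) and a log-scale matrix were not used.

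Here DESeq2 1.42.0 (R 4.3.3) was fitted to 12 groups over all 36 libraries, with two-sided Wald tests, and FDR < 0.05 over all genes tested was called. The fit was tested on simulated data. Named genes were the 10 members, at most 3 called genes with the lowest FDR per pathway list and stage, the 3 genes most correlated with each member, and Zfp266. One gene that this rule names is not reported here. Members and lists were chosen with earlier results of these data known. Alternatives were edgeR 4.0.16 quasi-likelihood, TMM size factors, no independent filtering, filters on low counts, the compared groups alone, replicate blocks and leaving out each library. Gene positions and exons are from GENCODE M21 and sequences from RefSeq, both on GRCm38.p6.

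Same-numbered WT and KO libraries deviated together at day 3 (correlations 0.456, 0.101 and 0.272) and day 7 (0.339, 0.172 and 0.392). They did so at day 5 too (0.268, 0.0897 and 0.221), and the labels do not explain this. In MEFs, iPSCs and ESCs not every pair did, so numbers were treated as pairs at days 3, 5 and 7 only. The pairing is uncertain at day 3, where WT replicate 2 correlated more with KO replicate 3 (0.126) than with KO replicate 2 (0.101). Separate iPSC clones also reached 0.259 (WT replicate 3 and KO replicate 3). The printed results are from the fit without a block. Fits with a block were run at all stages, and the named genes whose call they changed are listed in the last section.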

Additional observations from a re-analysis of the deposited data

Results flagged for a closer look

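A difference between KO effects at 2 stages that passed its own test was found for 3 results. The KO effect on Smad7 was more positive at day 7 (log2FC 0.85) than at day 3 (-0.23), a difference of 1.08 (DESeq2 FDR 0.00239), with all 3 KO libraries above WT at day 7 and all 3 below at day 3. The day 3 effect was not called by itself. For Id1 the KO effect was 0.31 at day 7 and -0.94 in iPSCs, a difference of 1.25 (DESeq2 FDR 1.28e-05), with all 3 KO libraries above WT at day 7 and all 3 below in iPSCs. The day 7 effect was not called by itself (DESeq2 FDR 0.186). There the lowest KO library (1061.34) was barely above the highest WT library (1061.28). For Bmp4 it was 1.81 at day 7 and -0.053 in iPSCs, where the groups overlapped, a difference of 1.87 (DESeq2 FDR 0.003). All 3 passed in each of 19 alternatives, with FDR up to 0.0171, 0.000254 and 0.0259. Groups of 3 libraries are too small for a test of single libraries standing apart.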

How the results depend on the processing

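Over 59 results on the members, 788 of 823 alternative values kept their direction and side of the threshold. Shares of all genes called are given for the main fit of 36 libraries only, so nothing is read from counts of calls in other fits. In fits of the compared groups alone, members called were 2 at day 5 (1 over all 36 libraries), 4 at day 7 (2), 1 of 9 in iPSCs (3) and 4 of 9 in ESCs (1), and calls among intracellular regulators over the 6 stages were 3 (6). With the replicate number as a block, 2 members were called in ESCs (1), and with the block within stage, which was chosen after seeing the data, 2 in ESCs, 2 for the difference between day 7 and day 3 (1), and 12 secreted antagonists over the stages (6). Apart from Grem1 at day 7 and in ESCs, Bmp4 between days 7 and 3, and the pathway genes Eng and Bmpr1a in iPSCs, neither block changed the call of a named gene. Leaving out 1 library in turn gave 0 to 1 called members in ESCs, 1 to 2 for day 7 against day 3, 2 to 5 called signal-transducing Smads over the stages (2), and 2 to 3 members in iPSCs. Without MEF KO replicate 3, the library with few epithelial markers, uncalled MEF differences of log2FC -0.35 for Bmp2, 0.35 for Bmp4 and 0.37 for Id4 turned to 0.12, -0.21 and -0.31, and over all 6 fits without 1 MEF library they ran from -0.708 to 0.12, -0.21 to 0.600 and -0.31 to 0.63. The cause of these changes was not tested. The planned filterByExpr removed no gene, so a minimum mean of 10 normalised counts was added after seeing the data. On a pseudocount of 10, the likeness of Cpe to Bmp2 was r 0.952 (0.994 with 1). Low counts limited Bmp2 and Grem1 in iPSCs and ESCs.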
